A study of Mus musculus with 13 samples.

Results

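The 500 strongest peaks of open chromatin that 13 cultures of mouse oligodendrocyte progenitor cells (OPCs) had in common were described. Joining ATAC-seq peaks with 1 or more bases in common gave 99746 merged peaks. Of these, 13075 held a peak of every library (the shared peaks), and the members were the 500 shared peaks of highest rank. They were chosen by their fold enrichment, the signal of a peak relative to the background expected at that place. Within each library, the highest fold enrichment in a merged peak was turned into its percentile among all peaks of that library, from 0 to 100, and the mean of the 13 percentiles gave the rank. The level of the members is therefore a description and carries no test.

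The libraries came from OPCs of the brainstem or the dorsal telencephalon (cortex, corpus callosum and hippocampus) of pups at postnatal days 5 to 7, and were either control or H3.3 K27M. There were 3 control brainstem libraries (cultures 51, 59 and 61), 3 K27M brainstem libraries (41, 59 and 61), 3 control telencephalon libraries (51, 59 and 61) and 4 K27M telencephalon libraries (41, 51, 59 and 61). All groups were from AMGFAP-Cre;K27M litters as labelled. In K27M animals the mutant histone is made from the endogenous gene once Cre has removed a stop cassette in neural stem and progenitor cells and their progeny. Controls were littermates, which the paper describes as lacking Cre in its single-cell methods. Tissue of several pups was pooled by region and genotype, the cells were taken by panning on an antibody to PDGFRα after depletion of endothelial cells and microglia, kept in proliferation medium without differentiation, and frozen before nuclei were isolated.

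Open chromatin is DNA with few nucleosomes, into which the Tn5 transposase inserts sequencing adapters. At the promoters of genes used by most cells it is kept open by general factors such as NF-Y, which binds the CCAAT box, whereas regulatory DNA far from genes differs more between cell types. In OPCs such distal DNA is bound by factors of the SOX and OLIG families.

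The number of called peaks ranged from 16879 (control telencephalon culture 59) to 52466 per library, and no read counts came with the lists, so the depth is unknown. Promoters of 11 of 12 OPC marker genes held a shared peak, as did those of 1 of 9 oligodendrocyte, 3 of 6 astrocyte and 3 of 10 neuron markers. Over all protein coding genes it was 9290 of 21992. Among the markers of microglia (7 genes), endothelial cells (6) and mural cells and fibroblasts (5), 0 promoters held one.

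To show the motif whose share was highest among the top promoters, although most of them lacked it, 6 stretches of 120 bases are given in the direction of the gene, from the GRCm38 (mm10) assembly. They are from the 6 highest ranked promoter members of protein coding genes with a CCAAT box (AGCCAAT, or ATTGGCT on the other strand, in capitals), a stretch free of annotated exons and little repeated sequence. Osbp codes for an oxysterol binding protein, Khsrp for an RNA-binding splicing regulator, Zfp788 for a zinc finger protein, Rab40c for a small GTPase of the Rab family, Swsap1 for a protein of homologous recombination and Ap2a1 for a subunit of the clathrin adaptor AP-2.
Osbp (rank 5, chr19:11965596-11965715, + strand): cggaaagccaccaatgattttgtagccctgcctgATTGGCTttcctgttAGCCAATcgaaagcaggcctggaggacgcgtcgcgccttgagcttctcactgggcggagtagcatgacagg
Khsrp (rank 6, chr17:57031985-57032104, − strand): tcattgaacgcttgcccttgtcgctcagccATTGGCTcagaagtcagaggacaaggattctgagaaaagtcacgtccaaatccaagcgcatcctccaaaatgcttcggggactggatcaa
Zfp788 (rank 32, chr7:41633082-41633201, + strand): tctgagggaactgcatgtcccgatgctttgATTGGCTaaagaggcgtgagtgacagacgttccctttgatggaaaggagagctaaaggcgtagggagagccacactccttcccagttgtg
Rab40c (rank 54, chr17:25920089-25920208, − strand): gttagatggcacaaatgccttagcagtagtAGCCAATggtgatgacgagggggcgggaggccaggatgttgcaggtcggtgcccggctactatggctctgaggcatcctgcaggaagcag
Swsap1 (rank 85, chr9:21955618-21955737, + strand): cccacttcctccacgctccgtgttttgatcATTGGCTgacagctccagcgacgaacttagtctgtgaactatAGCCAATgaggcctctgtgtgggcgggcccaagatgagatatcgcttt
Ap2a1 (rank 89, chr7:44929509-44929628, − strand): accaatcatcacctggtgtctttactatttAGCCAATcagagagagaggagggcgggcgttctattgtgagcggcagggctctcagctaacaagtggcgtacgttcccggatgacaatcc

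Outside promoters, 4 stretches with the string AACAATGG of SOX factors (or CCATTGTT on the other strand, in capitals) are given on the + strand, since its share among distal peaks was highest at the top ranks. Dnmt3c codes for a DNA methyltransferase of the male germ line and Lrrc4c for a synaptic adhesion protein.
Near Gm47892 (rank 9, intergenic, chr13:115687483-115687562): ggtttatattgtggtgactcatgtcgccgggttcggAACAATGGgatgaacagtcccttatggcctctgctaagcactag
Lrrc4c (rank 20, intron, chr2:97478722-97478801): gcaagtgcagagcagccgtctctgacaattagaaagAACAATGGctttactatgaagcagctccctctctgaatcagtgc
Dnmt3c (rank 41, merged peak overlapping an exon, chr2:153713239-153713291): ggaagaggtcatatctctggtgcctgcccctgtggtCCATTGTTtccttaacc
Arhgef10l (rank 57, intron, chr4:140658179-140658258): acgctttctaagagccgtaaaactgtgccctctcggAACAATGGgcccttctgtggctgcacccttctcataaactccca

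Other members lay in repeated DNA, and 1 stretch shows it. It is the start of the longest run of bases that ranks 1 and 2 shared without a mismatch within the 500 bp around their midpoints (304 bases, of which 150 are printed).
Ranks 1 and 2 (as in rank 1, unplaced scaffold JH584304.1, bases 90400 to 90549): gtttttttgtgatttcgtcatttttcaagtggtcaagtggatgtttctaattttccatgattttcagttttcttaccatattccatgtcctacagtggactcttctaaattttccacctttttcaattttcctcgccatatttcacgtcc

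The mean percentile of the members ran from 96.3347 to 99.9980, and their mean fold enrichment over the 13 libraries from 4.51 to 10.9, with a median of 4.80 against 3.51 over the other 12575 shared peaks. The last member, at the promoter of Ccdc85a (rank 500, chr11:28583230-28584743), had a mean percentile of 96.3347. The first peak outside, an intergenic one nearest to 4933427I22Rik (chr4:139947861-139949312), had 96.3346. The last 10 members had mean percentiles of 96.33 to 96.39 and mean folds of 4.52 to 4.81, and the first 5 peaks outside had mean folds of 4.46 to 4.83, so that both sides of the limit overlapped in fold. Ranked by the percentile of the −log10 p-value in place of the fold, only 244 of the 500 members would have been kept.

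**Figure D1:**
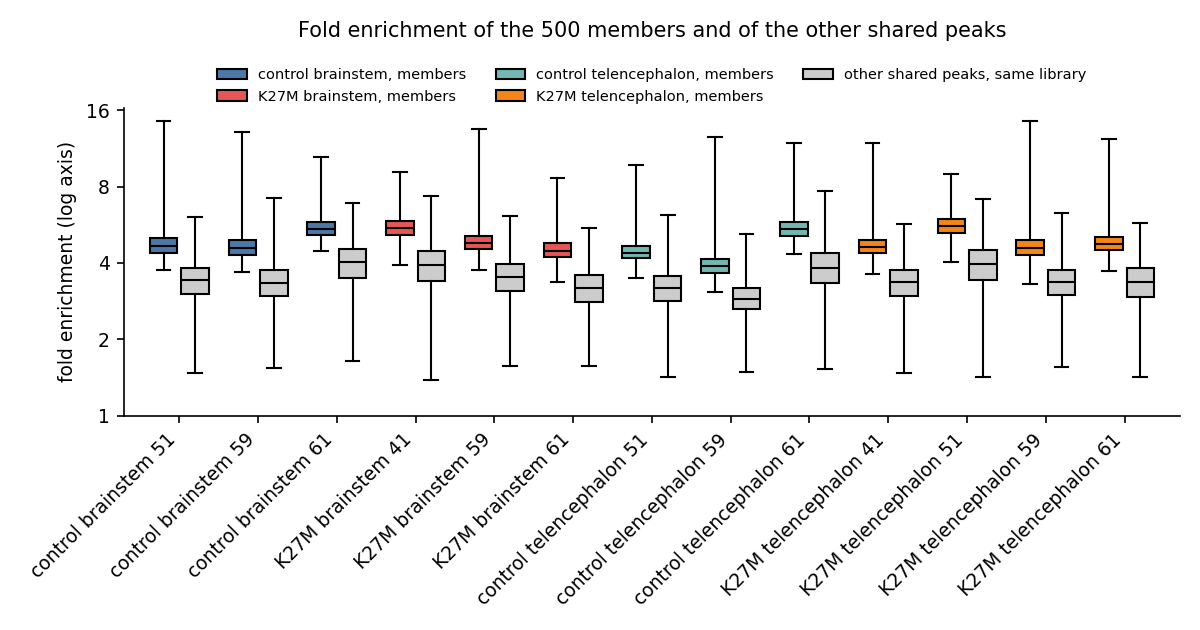
Fold enrichment (log axis) of the 500 members (coloured by group) and of the other 12575 shared peaks (grey) in each of the 13 libraries. Boxes span the quartiles with the median as a line, and whiskers reach the lowest and highest peak. Member medians run from 3.90 in control telencephalon culture 59 to 5.58 in K27M telencephalon culture 51, and the grey medians from 2.88 to 4.02.

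In a single library, between 232 and 281 of the members were also among its own 500 shared peaks of highest fold. In all 13 libraries, 376 members (75.2%) were at or above the 90th percentile, compared with 67 of the other shared peaks (0.533%), a difference that the choice of members sets. The lowest percentile of any member in any library was 69.1, and 12 members fell under the 80th percentile in at least 1 library. Control telencephalon culture 59, the library with the shortest list, was the one in which 144 of the 500 members had their lowest percentile, while the other 12 libraries accounted for 16 to 51 members each.

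The 4 highest ranked members were intergenic. Rank 1 (bases 89693 to 91145) and rank 2 (bases 80960 to 82050) lay on the unplaced scaffold JH584304.1. Rank 1 had folds of 11.2, 13.1 and 10.5 in control brainstem cultures 51, 59 and 61, and of 9.11, 13.5 and 8.62 in K27M brainstem cultures 41, 59 and 61. In the telencephalon its folds were 9.15, 12.2 and 11.3 in control cultures 51, 59 and 61, and 11.9, 8.78, 10.0 and 12.4 in K27M cultures 41, 51, 59 and 61. The 4 groups overlapped, and every one of the 13 values was above the highest fold of any promoter member averaged over libraries (6.04). The scaffold carried 14 shared peaks and 7 members (ranks 1 to 479, mean folds 5.25 to 10.9), and in the 500 bp around the midpoint of these members 91.8 to 98.0% of the bases were marked as repeats in the assembly.

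Ranks 3 (chr5:132731686-132732451, intergenic, nearest to Gm38373 at 64217 bp) and 4 (chr1:118123466-118124162, intergenic, nearest to Gm29106 at 52589 bp) had mean folds of 8.30 ± 1.12 and 6.76 ± 0.832 (SD, n = 13). Together with rank 42, in an intron of Fam184a (6.22 ± 0.769), and rank 98, nearest to Gm5311 (5.47 ± 0.840), they were the 4 members whose stretches of 75 bases had a median of over 1000 exact copies in the genome (1966.5 to 2613.5). All 4 windows were 100% repeat-marked. How reads from such copies were placed is not given in the sources used here, and its part in the folds of these 4 members and of the 7 on the scaffold was not tested.

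**Figure D2:**
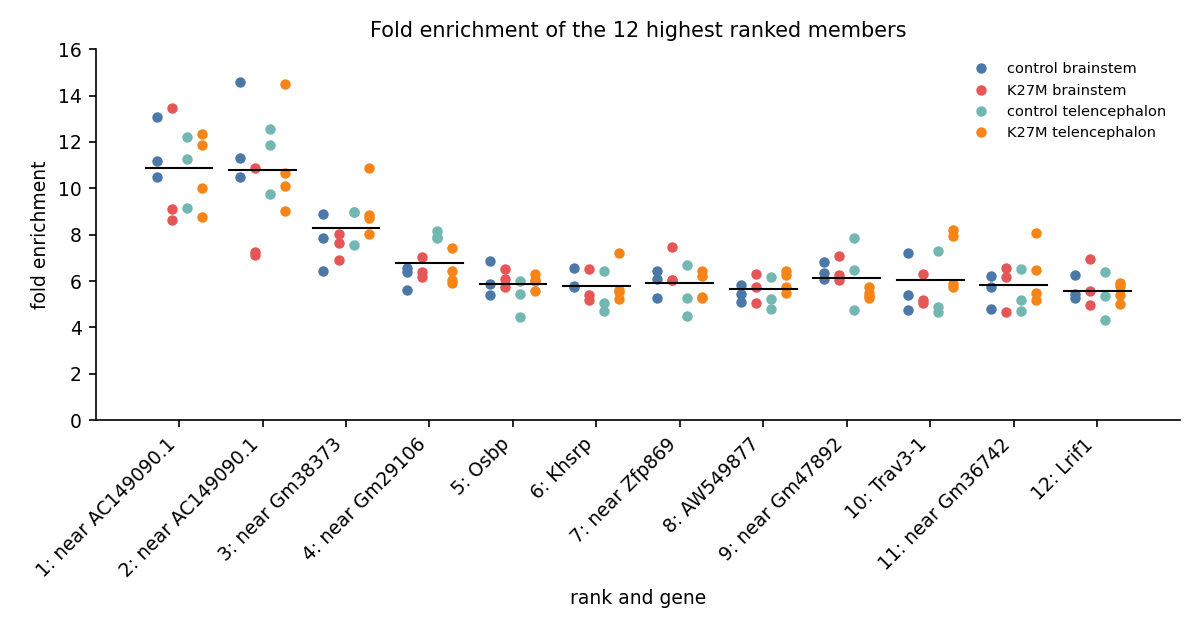
Fold enrichment of the 12 highest ranked members, with 1 point per library coloured by group and a line at the mean of the 13 libraries. Ranks 1 and 2 on the scaffold have means of 10.9 and 10.8, ranks 3 and 4 have 8.30 and 6.76, and the first promoter, Osbp, has 5.87.

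Repeated sequence was measured for all members as the share of the 75-base stretches in the 500 bp window that occur more than once in the assembly. That share was over 10% in 39 of 500 members (7.80%) and in 170 of 12573 other shared peaks with a sequence (1.35%). It was over 50% in 17 members (3.40%) and in 19 of the others (0.151%). Among the members above 10% were 28 in promoters. Gpr137b (rank 305), a lysosomal membrane protein, and its pseudogene Gpr137b-ps (rank 348) shared a run of 354 identical bases. The T cell receptor alpha segments Trav3-1 (rank 10) and Trav3-3 (rank 76) shared 84, and the zinc finger gene Zfp931 (rank 69) and Gm14326 (rank 99), which lie on the same chromosome, shared 160. Values at such pairs are uncertain where reads lie within the common run, which was not tested, and the pairs were chosen after their values were seen.

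Promoters held most of the members. A promoter ran from 2000 bp upstream to 1000 bp downstream of any annotated transcription start (GENCODE M21). By this rule 355 members (71.0%) were in promoters, 83 (16.6%) were intergenic, 53 (10.6%) were in introns and 9 (1.80%) were in exons. Over all 13075 shared peaks the promoter share was 69.4%, close to that of the members. The share stayed between 66.0% and 76.7% in every rank class down to the last. The promoter members lay closer to the start, with 304 of 355 (85.6%) within 250 bp of one, compared with 78.2% of the 8724 other shared promoter peaks. More than 1 protein coding gene had its promoter in 74 of the promoter members (20.8%), compared with 12.9% of the others. An example is the member of rank 129 (chr16:15636821-15638402), which overlapped the promoters of Mcm4, a subunit of the replicative helicase, and Prkdc, the catalytic subunit of the DNA repair kinase DNA-PK.

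The highest promoter was that of Osbp (rank 5, chr19:11964959-11965899). Its folds were 5.40, 5.89 and 6.86 in control brainstem cultures 51, 59 and 61, and 6.53, 6.09 and 5.74 in K27M brainstem cultures 41, 59 and 61. They were 5.43, 4.43 and 6.01 in control telencephalon cultures 51, 59 and 61, and 5.57, 6.30, 6.06 and 6.02 in K27M telencephalon cultures 41, 51, 59 and 61. The groups overlapped, and the lowest value was again in control telencephalon culture 59. The next promoters were those of Khsrp (rank 6, chr17:57031484-57032497, mean fold 5.77 ± 0.720, SD, n = 13), of AW549877 (rank 8, 5.66 ± 0.529), of Trav3-1 (rank 10, 6.04 ± 1.25) and of Lrif1 (rank 12, 5.59 ± 0.690), a nuclear protein of silent chromatin. The promoter of Kdm4a (rank 28), a histone demethylase, had one of the steadier folds (5.34 ± 0.302).

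Of 9290 protein coding genes with a shared peak at their promoter, 405 (4.36%) had a member. Among the 25 cell cycle genes with a shared peak, 2 had a member, Pcna (rank 64), the sliding clamp of DNA polymerases, and Mcm4. Pcna had folds of 4.65, 4.70 and 5.63 in control brainstem cultures 51, 59 and 61 and of 6.47, 5.37 and 5.12 in K27M brainstem cultures 41, 59 and 61. Its folds were 4.34, 4.22 and 5.42 in control and 5.30, 5.94, 4.54 and 4.55 in K27M telencephalon cultures, in the same order of cultures as above, and the groups overlapped. Its window was 24.4% repeated. The chaperone gene Hsph1 (rank 194, mean fold 4.82 ± 0.678) was the 1 member of 13 heat shock and unfolded protein response genes. Of the zinc finger genes, the longest list, 20 of 297 had a member (6.73%, compared with 8% of the cell cycle genes and 7.69% of the heat shock genes), the highest of them Zfp619 (rank 26), Zfp81 (rank 29) and Zfp788 (rank 32). The RNA-binding proteins Hnrnpc (rank 166) and Hnrnpul2 (rank 259) were the 2 of 46 splicing factors. Rps29, a protein of the small ribosomal subunit, was the 1 of 61 ribosomal protein genes, and the peak (rank 499) lay nearest to the start of its neighbour Rn7s1, a gene of the signal recognition particle RNA.

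Of the 11 OPC marker genes with a shared promoter peak, 0 had a member. The list was too short for a count of 0 to differ from the 4.36% of all protein coding genes. The receptor gene Pdgfra, the target of the panning antibody, had the best of their ranks (9178, mean fold 3.23), and the transcription factor gene Olig2 had rank 11780 (2.84). Sox10, another lineage factor, had rank 13033 (2.28), and the median rank of the 11 genes was 11854 against 6339 over all protein coding genes with a shared peak. Of the immediate-early genes, the first to respond to growth factors, 17 had a shared peak and 0 had a member, again too few for a count of 0 to differ. Their median rank was 11637, with Fos at 12510 and Jun at 11629. The other lists with a count of 0 were also all too short for it to differ from the 4.36% of all protein coding genes. Members were 0 of 11 genes of Polycomb repressive complex 2 and H3.3 (best rank 1860, Suz12, median 5483) and 0 of 7 of CTCF and cohesin. They were 0 of 16 aminoacyl-tRNA synthetases (median rank 3539.5), 0 of 38 replication-dependent histones and 0 of 65 of the respiratory chain and ATP synthase. They were also 0 of 30 proteasome subunits (median rank 6147) and 0 of 51 translation factors. None of the 39 Hox genes had a shared promoter peak. These ranks are of fold enrichment and do not measure transcription.

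In the 500 bp window, promoter members had a median of 63.8% G or C against 64.6% in the other promoter peaks, and members outside promoters 47.8% against 49.0%. Short motifs were then searched on both strands. The CCAAT box (AGCCAAT) was found in 111 of 355 promoter members (31.3%) and in 1017 of the 8724 other promoter peaks (11.7%). Its share fell from class to class of rank, from 37.9% at ranks 1 to 100 through 32.2% at ranks 101 to 250 and 28.2% at ranks 251 to 500 to 7.49% at ranks 8001 to 13075. The order was the same in windows of 300 bp (22.3% against 7.97%) and 1000 bp (40.8% against 16.7%). When the 500 peaks were taken from each library by its own percentiles, the share was 18.2 to 34.7% of the promoter peaks, and 11.5 to 12.2% among the remaining ones. With the ranking by −log10 p, which kept fewer than 1 in 2 members, the share was 37.6% against 11.3%.

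**Figure D3:**
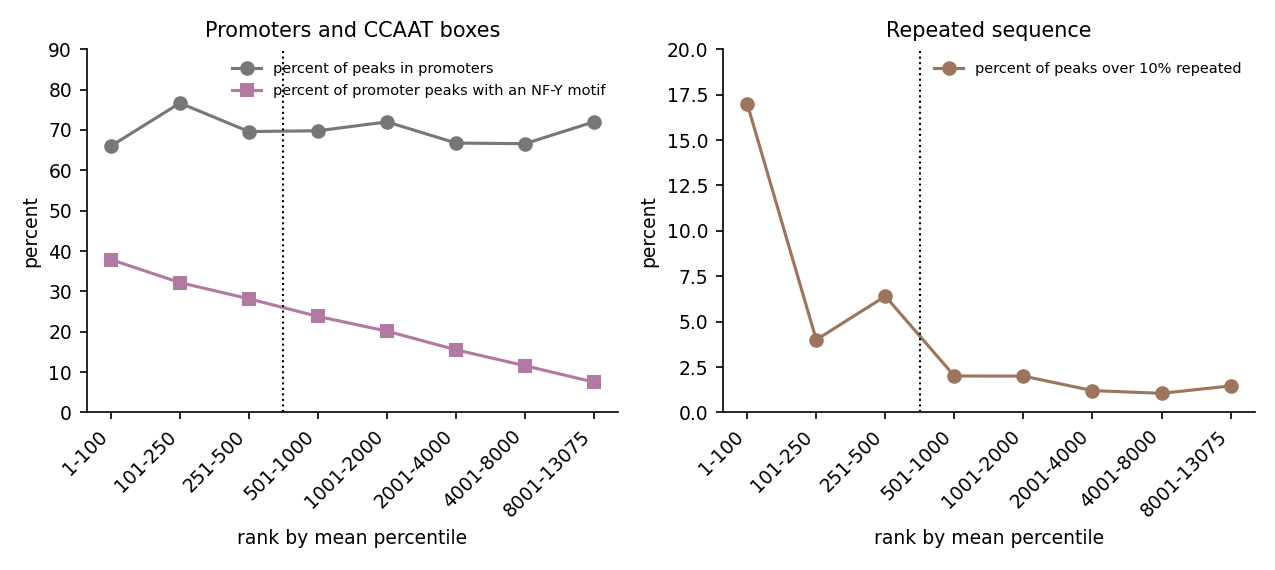
Left, percent of shared peaks in promoters (grey) and percent of promoter peaks whose 500 bp window holds the NF-Y motif (purple), by class of rank. Right, percent of shared peaks with over 10% repeated sequence. The dotted line marks the limit of the members at rank 500. The promoter share stays between 66.0% and 76.7%, the motif share falls in every class from 37.9% to 7.49%, and repeated sequence is highest at ranks 1 to 100 (17%).

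CCAAT boxes were then counted in the window of 1000 bp centred on the peak midpoint. Of the 310 promoter members nearest to a protein coding start, 129 (41.6%) held at least 1 and 40 (12.9%) at least 2. Among 7832 other promoter peaks the shares were 16.9% and 2.95%. The stretches printed for Osbp and Swsap1 hold 2 each. The boxes of the members had a median position of −107.5 bp from the start (−85 bp in the others), and 35.9% of them at 50 to 150 bp upstream (35%). Promoter members with the box had a median fold of 4.78 and a median width of 1042 bp, and those without had 4.80 and 1108.5 bp.

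The GC box of Sp and KLF factors (GGGGCGGGG) was in 22.0% of promoter members and 24.7% of the other promoter peaks, and the ETS string (CCGGAAGT) in 9.86% and 8.39%. NRF1 (GCATGCGC) was in 4.23% and 5.88%, YY1 (AAGATGGC) in 5.07% and 6.44%, and CREB and ATF (TGACGTCA) in 4.23% and 3.61%. The insulator protein CTCF, searched as any of the 6 strings AGGGGGCGC, AGGTGGCGC, AGAGGGCGC, AGGTGGCAG, AGGGGGCAG and AGAGGGCAG, was in 8.45% and 10.0%.

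Outside promoters the CCAAT box was rarer in the members, with 4 of 145 (2.76%) against 7.79% of 3849 others. The SOX string AACAATGG was found in 12 of 145 distal members (8.28%) and in 144 of 3849 others (3.74%). By rank it was in 6 of 34 distal peaks (17.6%) at ranks 1 to 100, 1 of 35 at ranks 101 to 250 and 5 of 76 at ranks 251 to 500. AP-1 (TGANTCA) was in 24.1% of distal members and 21.3% of the others, and the E-box CATATG of OLIG and related factors in 8.28% and 7.95%. Distal members lay at a median of 22564 bp from the nearest start, against 15779 bp in the other distal shared peaks, and 33 of them (22.8%) were more than 50000 bp away (13.5%). Rank 7 (chr8:69716221-69717507, mean fold 5.93 ± 0.782) was intergenic, 6153 bp from the start of Zfp869, although it held a CCAAT box and 61.8% G or C. Rank 9, nearest to Gm47892 at 31941 bp, had 6.13 ± 0.832, and rank 11, nearest to Gm36742 at 98224 bp, had 5.83 ± 0.975.

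Width was not itself ranked, but whether the fold of a peak depends on its width was not tested. The median width of a member, taken over the 13 libraries, ran from 429 to 1724 bp with a median of 1064 bp. In the other shared peaks it ran from 374 to 5189 bp with a median of 1089 bp. The merged members spanned 683 to 2517 bp (median 1451 bp), and the other merged shared peaks 449 to 9073 bp (median 1681 bp). Promoter members had a median of 1097 bp and distal members 1015 bp. The narrowest members were those of ranks 22 (429 bp), 4 (507 bp) and 193 (538 bp), all in repeated DNA. The widest were at the promoter of Lnpep (rank 406, 1724 bp), a membrane aminopeptidase, at an intergenic site nearest to the endothelin receptor gene Ednrb (rank 478, 1711 bp) and at the promoter of Rbm12b1 (rank 27, 1606 bp). The window of Rbm12b1 was also repeated (66.4%), and its width ran from 531 to 1818 bp over the libraries. In every library each member was covered by a single peak. The median member width of a library ran from 847.5 bp in control telencephalon culture 59 (16879 peaks) to 1178 bp in K27M telencephalon culture 61 (42238 peaks), and was 1156 bp in the library with the longest list (control brainstem culture 61, 52466 peaks).

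The members differed in how evenly they were ranked. The SD of the percentile over the 13 libraries had a median of 2.16 and ran from 0.00234 (rank 1) to 8.43. The steadiest were ranks 1, 2, 3, 6 and 8, the last 2 of which are the promoters of Khsrp (0.0868) and AW549877 (0.115). The largest SDs belonged to the promoter of Triqk (rank 386, 8.43), an intergenic peak nearest to the transcription factor gene Bhlhe40 (rank 489, 7.97), the promoters of Ccdc85a (rank 500, 7.20) and of the U3 small nucleolar RNA gene Rnu3b2 (rank 435, 6.52), and an intergenic peak nearest to the cell adhesion gene Opcml (rank 492, 6.50). Triqk had folds of 4.70, 5.07 and 6.22 in control brainstem, 5.63, 6.38 and 4.95 in K27M brainstem, 5.55, 3.78 and 5.35 in control telencephalon and 5.74, 6.32, 3.3 and 6.26 in K27M telencephalon. Its low values were those of culture 59 in both telencephalon groups. The percentile cannot exceed 100, which bounds the SD of the highest ranks.

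Whether the strongest shared peaks differed between regions of origin was asked next, with limma on log2 fold enrichment after cyclic loess normalisation over all 13075 shared peaks. Of the 500 members, 0 were called between brainstem and telencephalon at an adjusted p under 0.05 (limma, smallest adjusted p 0.487), and 15 had an unadjusted p under 0.05. Among all shared peaks 4 were called (0.0306%) and 747 had an unadjusted p under 0.05 (5.71%), against 3.00% of the members. The test used the same folds that chose the members, and ranking by the mean over all 13 libraries leaves out peaks that are low in one group, so nothing is read from a lower share of calls among them, here or by genotype. The 4 called peaks were no members and had ranks of 3798 to 11327. The median difference of the members was −0.01 on the log2 scale (brainstem minus telencephalon) beside 0.00 over all shared peaks, and the median size of a difference was 0.04 with a median standard error of 0.07.

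The smallest p by region was at an intergenic peak nearest to Gm47351 (rank 255, chr13:39505324-39506363). Its folds were 4.21, 4.86 and 4.87 in control and 5.19, 4.44 and 3.96 in K27M brainstem, and 5.33, 5.14 and 5.44 in control and 5.83, 6.34, 4.10 and 5.32 in K27M telencephalon. The mean was 4.59 ± 0.465 in 6 brainstem and 5.36 ± 0.685 in 7 telencephalon libraries, the groups overlapped, and the log2 difference of −0.28 ± 0.08 (SE) did not pass (limma, unadjusted p 0.00124, adjusted p 0.487). Gpr137b (rank 305) had a log2 difference of 0.22 ± 0.08 and the scaffold peak of rank 479 one of 0.32 ± 0.12, and neither passed (limma, adjusted p 0.762 for both).

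**Figure D4:**
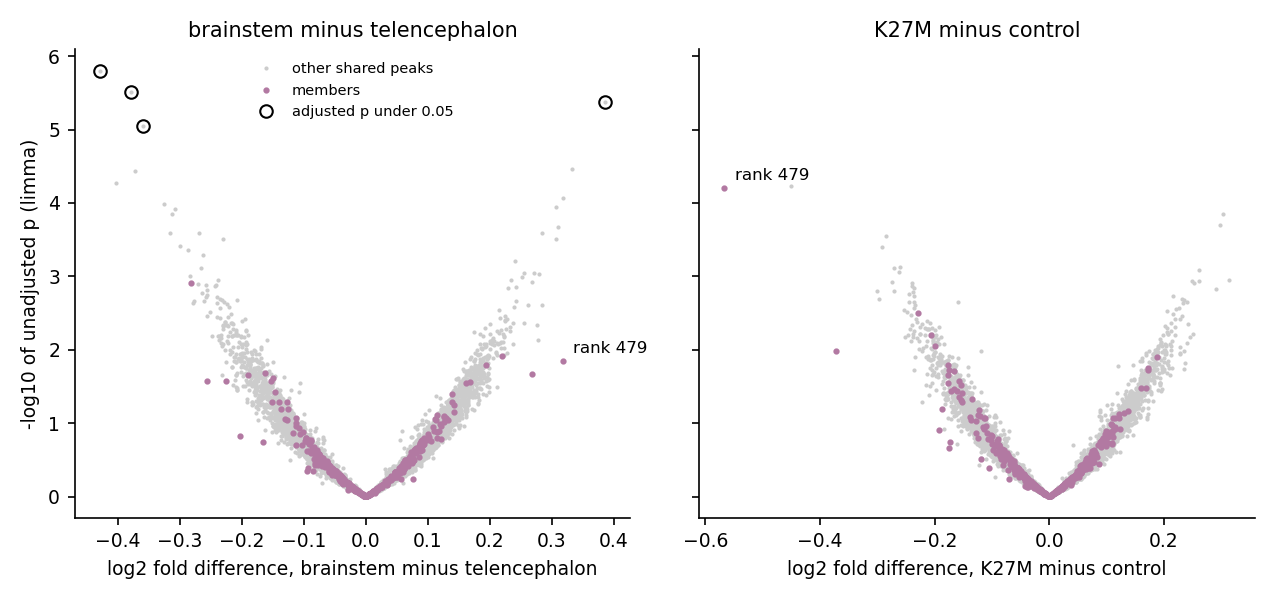
Log2 difference in fold enrichment (horizontal axis) and −log10 of the unadjusted limma p (vertical axis) for brainstem minus telencephalon (left) and K27M minus control (right). Purple points are the 500 members, grey points the other shared peaks, and circles the 4 peaks with an adjusted p under 0.05, none of them a member. The member of rank 479 is named, at 0.32 by region and −0.57 by genotype.

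The same question was asked of the mutant histone. Between K27M and control, 0 of the 500 members were called (limma, smallest adjusted p 0.407), and 0 of the 13075 shared peaks (0%). An unadjusted p under 0.05 was found in 24 members (4.80%) and in 642 shared peaks (4.91%). The median difference of the members was −0.01 on the log2 scale (K27M minus control) and the median size 0.04. The interaction of region and genotype called 0 members and 0 shared peaks (0%), with 17 members (3.40%) and 483 shared peaks (3.69%) at an unadjusted p under 0.05.

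The member with the smallest p by genotype lay on the scaffold JH584304.1 (rank 479, bases 103275 to 104629). Its folds were 9.76, 6.50 and 9.75 in control brainstem cultures 51, 59 and 61, and 5.07, 4.23 and 4.63 in K27M brainstem cultures 41, 59 and 61. In the telencephalon they were 3.91, 5.49 and 5.99 in control cultures 51, 59 and 61, and 3.61, 4.23, 7.11 and 4.22 in K27M cultures 41, 51, 59 and 61. The brainstem groups did not overlap, while the telencephalon groups did. Over both regions the log2 difference was −0.57 ± 0.12 (SE) and did not pass (limma, unadjusted p 6.23e-05, adjusted p 0.407). It passed when only the 6 brainstem libraries were fitted (log2 difference −0.89, limma adjusted p 0.000867) and when K27M telencephalon culture 59 was left out (−0.69, limma adjusted p 0.000450). It was negative in all 22 alternatives to the main fit of the same peaks, with limma adjusted p from 0.000450 to 0.999. The 22 include the 2 fits just named, the only ones under 0.05. These fits tested the folds that also chose the member, so no conclusion is drawn from them. Its percentiles were 99.97 or more in control brainstem and 93.2 to 99.0 in K27M brainstem, and its mean percentile of 96.4626 lay near the limit of the members. The difference between the regions was not shown (interaction −0.65 ± 0.25, limma adjusted p 1.00). Its window was 98.0% repeat-marked and 64.8% repeated elsewhere in the assembly, and the part of that in the difference was not tested.

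**Figure D5:**
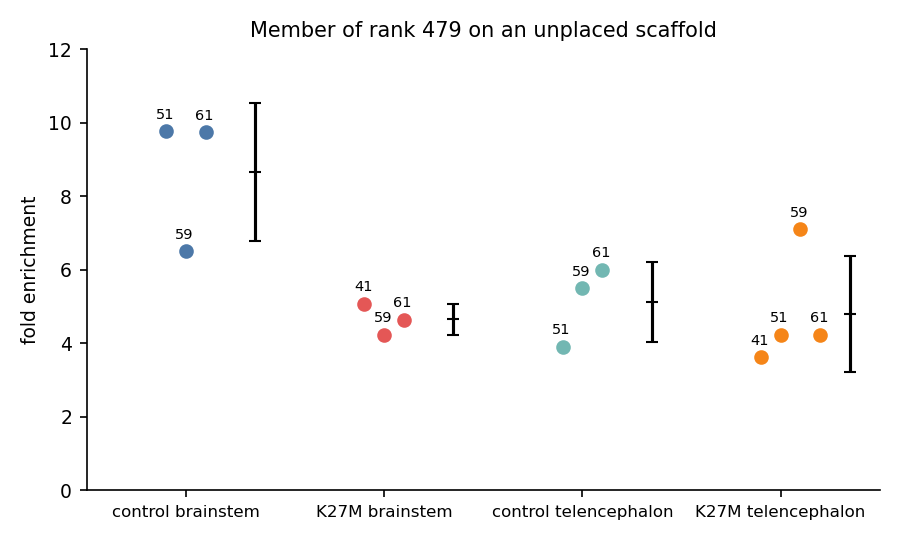
Fold enrichment of the member of rank 479 (smallest p by genotype) in each library, labelled by culture number, with the mean and SD of each group (bars). Control brainstem libraries lie between 6.50 and 9.76, K27M brainstem libraries between 4.23 and 5.07, and the telencephalon groups overlap.

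The next by genotype were a peak overlapping an exon of Mroh2b (rank 286, chr15:4942965-4944156) and an intergenic peak nearest to BC002059 (rank 284, chr17:17004345-17005819). Mroh2b had 4.61 ± 0.705 in 7 K27M and 5.16 ± 0.745 in 6 control libraries (SD), a log2 difference of −0.23 ± 0.07 (SE, limma adjusted p 0.967). BC002059 had 4.74 ± 0.786 and 5.28 ± 0.832, a log2 difference of −0.21 ± 0.07 (limma adjusted p 0.967). In both the groups overlapped.

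Width and place were compared between groups with 1 value per library. The median member width was 1071 ± 66.5 bp in 6 brainstem and 1085 ± 121 bp in 7 telencephalon libraries, a difference of −8.73 bp within genotype (two-sided exact permutation test, 700 arrangements, p = 0.891). It was 1095 ± 77.0 bp in 7 K27M and 1059 ± 119 bp in 6 control libraries, a difference of 32.1 bp within region (exact permutation p = 0.591). The mean log2 fold of the promoter members minus that of the distal members lay between −0.10 and 0.00 in the 13 libraries. The difference between brainstem and telencephalon was 0.02 (exact permutation p = 0.401) and that between K27M and control 0.03 (exact permutation p = 0.177). Each of these differences was smaller than the SD between libraries.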

How the data were processed

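ATAC-seq peak lists of 13 OPC libraries were used. Per the labels and the study's methods, the authors ran the nf-core ATAC-seq pipeline on mm10, with adapters trimmed by Trim Galore 0.6.7 and cutadapt 3.4, reads aligned with BWA 0.7.17-r1188, blacklisted regions removed and broad peaks called with MACS2 2.2.7.1 on each library alone. The deposited values per peak are the fold enrichment, a ratio over local background, the −log10 p-value and the −log10 q-value, and a score derived from the latter, which was not analysed. The authors gave no scaling across libraries for these lists, which hold no read counts, so depth and counting error are unknown.

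Overlapping peaks were joined (at least 1 bp), and the 500 members were ranked as described. The members, gene lists, motifs and tests were chosen with earlier results of these data known. Genes came from GENCODE M21 of GRCm38, which is the assembly of mm10. Sequence was read from the RefSeq copy of that assembly in windows of 500 bp around the midpoint of the bases common to the 13 strongest peaks, and scaffold names were matched by exon positions. Printed stretches were picked by rank after the values were seen. Log2 folds were tested with limma 3.58.1 after cyclic loess, with 4 group means, a variance trend, no pseudocount and Benjamini-Hochberg adjustment over all 13075 shared peaks. The tests were tried on simulated data. For limma the simulated differences were larger than any among the members, so the trial does not show whether smaller ones would be found. Values per library were compared with exact permutation tests. Named were the 12 highest members, the 6 highest outside promoters, both sides of the limit, the 5 largest and 5 smallest SDs, the 3 smallest p per comparison, the 3 widest and narrowest, and promoters of listed genes; any others were picked with their values in view. The study's own tests took matched cultures into account, whereas culture number was left out of the fit here and entered as an alternative. The p-values measure the spread between these cultures. Alternatives covered ranking, joining, list length, thresholds, normalisation, windows, promoter rules and leaving out each library.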

Additional observations from a re-analysis of the deposited data

Results flagged for a closer look

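Of 34 values examined for a library that stands apart, 1 did. In K27M telencephalon, the median fold of the 500 members was 5.58 in culture 51 and 4.59 to 4.75 in cultures 41, 59 and 61. The gap was 0.831 of the range, above Dixon's 95% critical value for 4 samples, which chance exceeds in about 1 in 20 groups. This library had 52164 peaks, compared with 30248 to 42238 in the other 3, and the part of list length in the difference was not tested.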

How the results depend on the processing

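Of the 500 members, 447 to 486 were kept when each library was left out and the peaks were ranked again, and 395 to 500 under 6 other choices (mean fold, median or lowest percentile, percentile among shared peaks, joining within 100 bp and lists cut to 16879 peaks). Fewer were kept with the −log10 p-value as the measure (244) and with peaks of p at most 1e-10 (307), where 869 peaks were shared. The promoter share was 67.4 to 75.0% under all rankings, and 65.2% with protein coding genes only. The CCAAT share of promoter members was 25.8 to 37.6% over rankings, an alternative added after the data were seen.

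Called members stayed at 0 by region (45 alternatives) and by interaction (43). By genotype it was 1, the scaffold peak of rank 479, with the brainstem libraries only and without K27M telencephalon culture 59, and 0 in the other 43, so that leaving out a library gave 0 to 1. Both of these fits kept the members as ranked over all 13 libraries. Ranked again without K27M telencephalon culture 59, 1 of 13243 shared peaks was called by genotype, and it was not among the 500 of that ranking. The difference by region of the scaffold peak of rank 479 was −0.0095 on the log2 scale within K27M libraries only. Leaving out 1 library moved the width difference by region to between −57.5 and 22.6 bp and that by genotype to between −16.7 and 63.4 bp, with a change of sign in 5 and 1 of 13 cases and exact permutation p of at least 0.16. By region the sign changed without control brainstem culture 59 (4.98 bp), K27M brainstem culture 61 (12.9 bp), control telencephalon cultures 51 (22.6 bp) and 61 (8.65 bp) and K27M telencephalon culture 61 (1.58 bp), and by genotype without control telencephalon culture 59 (−16.7 bp).

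With culture number as a replicate block, 0 members were called by region, genotype or interaction, and 21, 21 and 18 had an unadjusted limma p under 0.05. Paired by culture, the width differed by −2.83 bp by region (exact permutation p = 0.969) and 18.9 bp by genotype (p = 0.75), and promoter minus distal by 0.02 (p = 0.25) and 0.02 (p = 0.438). The deviations of libraries with the same number correlated at −0.06 to 0.17 (mean 0.06, 4 of 16 pairs over 0.1), and those with different numbers had a mean of −0.02 (4 of 47 over 0.1). The study's methods describe matched control and K27M cultures assayed together and take matching into account in the tests, but do not say that the number marks it.

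The lists limit what can be seen: without read counts a small difference in fold cannot be told from depth, and control telencephalon culture 59, with the shortest list, decides which peaks are shared (17350 without it).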

Other observations

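Among the assembled chromosomes the share of shared peaks that were members ran from 2.07% on chromosome 9 (15 of 723) and 2.5% on chromosome 5 (21 of 840) to 5.47% on chromosome 17 (30 of 548) and 6.10% on chromosome 13 (35 of 574), with 2.95% on chromosome X (9 of 305). A second unplaced scaffold carried 1 member (rank 37, at the promoter of CAAA01118383.1, mean fold 5.27 ± 0.509, SD, n = 13), whose 500 bp window held no repeated stretch of 75 bases. Chromosomes were not tested against each other.

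Among markers of differentiated cells, the promoter peak of Syt1, the calcium sensor of neurotransmitter release, had rank 1479 (mean fold 4.30), while the other neuron genes with a shared promoter peak, Snap25 and Tubb3, had ranks 5660 and 12933 (3.84 and 2.42). This compares with rank 8963 (3.28) for the astrocyte gene Gfap and rank 10441 (3.08) for the oligodendrocyte gene Cnp. Of the heat shock and unfolded protein response genes, Dnaja1, a co-chaperone, had rank 537 and so lay just outside the members, followed by Canx (rank 803) and Hspa5 (rank 1156), chaperones of the endoplasmic reticulum.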
